A study of Mus musculus with 4 samples.

Results

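Mitosis and kinetochore genes are the genes with which a cell condenses, aligns and separates its chromosomes and then divides. The 40 genes described here were chosen by name, with earlier results of these data known. All 40 were found among the 22180 genes that the platform annotation names on these arrays. Each was read by 1 probe set. Their RNA was read in 4 CD4 T cell populations of C57BL/6 mice aged 8 weeks, with 1 Affymetrix array per population. Natural Th1 cells (nTh1) were CD4+ CD62L+ CXCR3+ thymocytes sorted from CIITAtg mice, whose name stands for a transgene of the MHC class II regulator CIITA. Classical Th1 cells (cTh1) were grown from wild-type splenic CD4+ CD62Lhi cells on beads against CD3 and CD28 for 5 days, in medium with 50 U/ml IL-2, 2 ng/ml IL-12 and antibody that blocks IL-4. The naive array holds, by its label, uncultured splenic CD4+ CD62Lhi cells of wild-type mice, and the TT naive array the CXCR3- counterparts of the nTh1 cells in the CIITAtg thymus. The promoter of the transgene and the number of animals behind an array were not stated in the labels used here.

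As background, the division programme is switched on late in the cell cycle. Cyclin-dependent kinase 1 with cyclins A and B starts mitosis, kinetochores assemble on centromeres and bind spindle microtubules, and a checkpoint holds back anaphase until every chromosome is attached. The anaphase-promoting complex then marks cyclins and securin for destruction, and the cell splits. Transcription of these genes is low in resting cells, where the DREAM complex represses them, and high in G2 and mitosis, when B-MYB and FOXM1 activate them. A resting naive T cell does not divide, while a T cell activated through its receptor divides for several days, so these genes are widely used as a readout of division. In bulk samples, fewer dividing cells and less of a transcript per cell cannot be told apart.

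Many of these promoters share short DNA elements. The cell cycle genes homology region (CHR, letters TTTGAA) is bound by DREAM and B-MYB complexes, and the CCAAT box by NF-Y. RefSeq promoter windows of build GRCm38.p6, from 250 bases before to 50 bases after the annotated start, were matched to 32 of the 40 genes and gave 34 windows. The windows of 5 of them are printed, because they hold the start of mitosis (Cdk1, Ccnb2), the largest and the smallest difference between cTh1 and the array labelled naive among genes with a window (Prc1, Mki67), and the gene whose 4 values lay closest together (Pttg1). Letters are 5′ to 3′ on the strand of the gene, and capitals mark TTTGAA or CCAAT on either strand. Their positions are chr10:69352863-69353162 (minus strand) for Cdk1, chr9:70421505-70421804 (minus) for Ccnb2, chr7:80294201-80294500 (plus, the first of 2 windows of the gene) for Prc1, chr7:135716330-135716629 (minus) for Mki67 and chr11:43425932-43426231 (minus) for Pttg1.
Cdk1: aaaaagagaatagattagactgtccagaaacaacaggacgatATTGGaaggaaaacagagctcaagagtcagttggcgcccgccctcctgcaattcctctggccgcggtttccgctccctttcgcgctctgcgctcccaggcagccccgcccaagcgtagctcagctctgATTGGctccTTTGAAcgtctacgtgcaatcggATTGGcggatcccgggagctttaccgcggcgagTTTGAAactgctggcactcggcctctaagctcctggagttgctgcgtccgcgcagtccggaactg
Ccnb2: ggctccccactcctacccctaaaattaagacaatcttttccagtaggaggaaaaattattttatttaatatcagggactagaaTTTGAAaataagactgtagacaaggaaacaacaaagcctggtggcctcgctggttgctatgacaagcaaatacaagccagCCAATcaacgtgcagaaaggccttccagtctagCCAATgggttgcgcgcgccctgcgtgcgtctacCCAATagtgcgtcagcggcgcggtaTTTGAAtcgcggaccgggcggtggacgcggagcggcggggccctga
Prc1: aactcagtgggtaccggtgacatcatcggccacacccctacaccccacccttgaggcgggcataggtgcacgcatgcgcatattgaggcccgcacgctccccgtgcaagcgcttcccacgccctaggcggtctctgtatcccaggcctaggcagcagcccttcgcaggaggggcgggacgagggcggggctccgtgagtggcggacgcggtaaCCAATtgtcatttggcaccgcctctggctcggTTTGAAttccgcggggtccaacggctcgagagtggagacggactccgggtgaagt
Mki67: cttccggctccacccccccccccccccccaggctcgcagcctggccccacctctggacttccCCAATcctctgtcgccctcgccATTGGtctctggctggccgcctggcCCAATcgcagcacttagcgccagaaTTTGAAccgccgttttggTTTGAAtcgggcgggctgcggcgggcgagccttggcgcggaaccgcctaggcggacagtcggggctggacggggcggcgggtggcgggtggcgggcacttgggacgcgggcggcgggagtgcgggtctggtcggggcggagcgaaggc
Pttg1: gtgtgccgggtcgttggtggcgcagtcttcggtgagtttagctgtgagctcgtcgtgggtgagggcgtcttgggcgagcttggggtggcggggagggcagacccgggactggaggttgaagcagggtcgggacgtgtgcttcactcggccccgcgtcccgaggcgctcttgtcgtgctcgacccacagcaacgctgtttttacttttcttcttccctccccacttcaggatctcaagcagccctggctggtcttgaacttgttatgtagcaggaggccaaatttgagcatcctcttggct

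The windows of Cdk1, Ccnb2 and Mki67 each held TTTGAA at 2 places and CCAAT at 3. Prc1 had 1 of each, and in Pttg1 neither set of letters was in this window. On both strands, TTTGAA was found in 26 of the 34 windows of mitosis genes, or 76.5%, against 17.9% of all 32851 windows of the table. CCAAT was in 24 of the 34, or 70.6%, against 37.4% of all windows, and neither motif contains the other, though their ends can share a base. Both stood together in 64.7% of the windows of mitosis genes and in 6.95% of all windows. Among 34 windows of 29 DNA replication and S phase genes, the step of the cell cycle before mitosis, TTTGAA was in 14.7% and CCAAT in 58.8%. Of the 24 mitosis genes with TTTGAA, the match nearest the start lay at a median of 3 bases after it, with quartiles at -19 and 19.5 bases. A match describes letters and not a bound site.

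**Figure D1:**
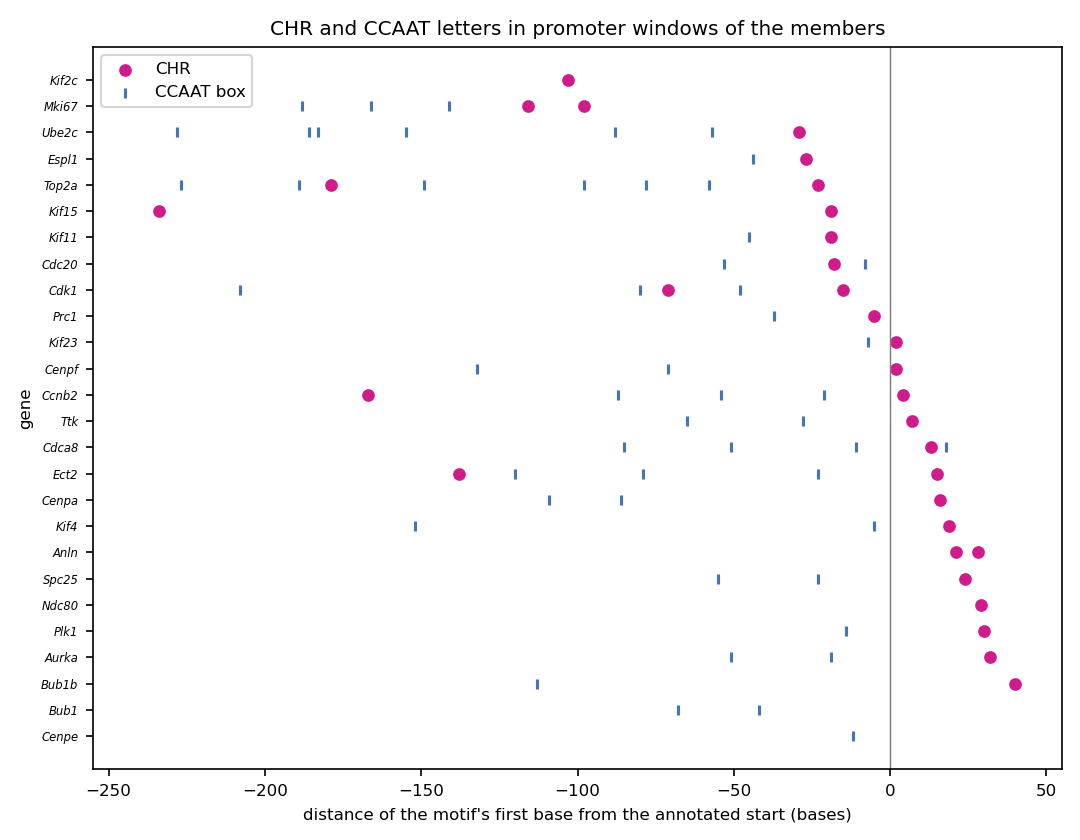
Distance in bases of the first letter of each TTTGAA (CHR, pink circles) and CCAAT (blue ticks) on either strand from the annotated gene start, in 1 promoter window for each of the 26 mitosis and kinetochore genes with a match. In 24 genes a CHR is drawn, and for most of them the match nearest the start lies close to it, between -103 and 40 bases.

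The arrays were first read against their labels. Median log2 values over all 41345 probe sets lay between 6.52 and 6.70. Markers of CD4 T cells reached the overall median of 6.61 for 6 of 6 measured genes on each array. The array labelled naive had the Th1 genes Cxcr3 and Tbx21 at 9.80 and 9.81, against 7.76 and 7.11 in TT naive, and Zbtb16, which encodes PLZF, a factor known from innate-like T cells, at 12.23, against 9.36 there. Markers of naive T cells reached the overall median for 6 of 6 measured genes on each array. All 6 were lower on the array labelled naive than in TT naive, with a median of -0.31 and Dapl1 lowest at -2.21. The Th1 and PLZF values go against a label of resting naive cells, so the main counts and medians are given against TT naive as well. The nTh1 array had Cxcr3 at 9.91, Tbx21 at 7.92, Ifng at 7.34 and Zbtb16 at 9.88, against 9.80, 9.81, 8.80 and 12.23 on the array labelled naive. The other Th1 genes, Il12rb2 and Eomes, were at 8.93 and 10.68 in nTh1, against 8.83 and 10.03 on the array labelled naive. Of the 5 Th1 genes, 3 were thus higher in nTh1 than on that array and 2 lower. The labels were used as given, and whether arrays were exchanged could not be settled from these values. Each nTh1 value and each value of the array labelled naive therefore depends on its label. With 1 array per group there is no replicate check and no test, and precision is limited by the number of arrays. The only error measured was the spread (SD) among probe sets that read the same gene, taken over genes with several, and it covers probes and isoforms but neither animals nor arrays.

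Across all 4 arrays the mitosis genes kept nearly 1 order. Every one of the 40 was highest in cTh1 cells and next highest on the array labelled naive, an order held by 15.0% of all 22180 genes. For 34 of them nTh1 was lowest, where 52.0% of all genes were lower in nTh1 than in TT naive, and for the other 6 (Cdc25c, Aurka, Kif11, Kif4, Cdc20 and Ect2) TT naive was lowest. With the array labelled naive left out, cTh1 was highest for 40 of 40, against 41.6% of all genes. Mean log2 values over the 40 genes were 8.29 in nTh1, 9.99 in cTh1, 9.50 on the array labelled naive and 8.48 for TT naive. All 40 reached the median of all values on at least 1 array, and 39 did so on every array, all but Cdc25c.

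**Figure D2:**
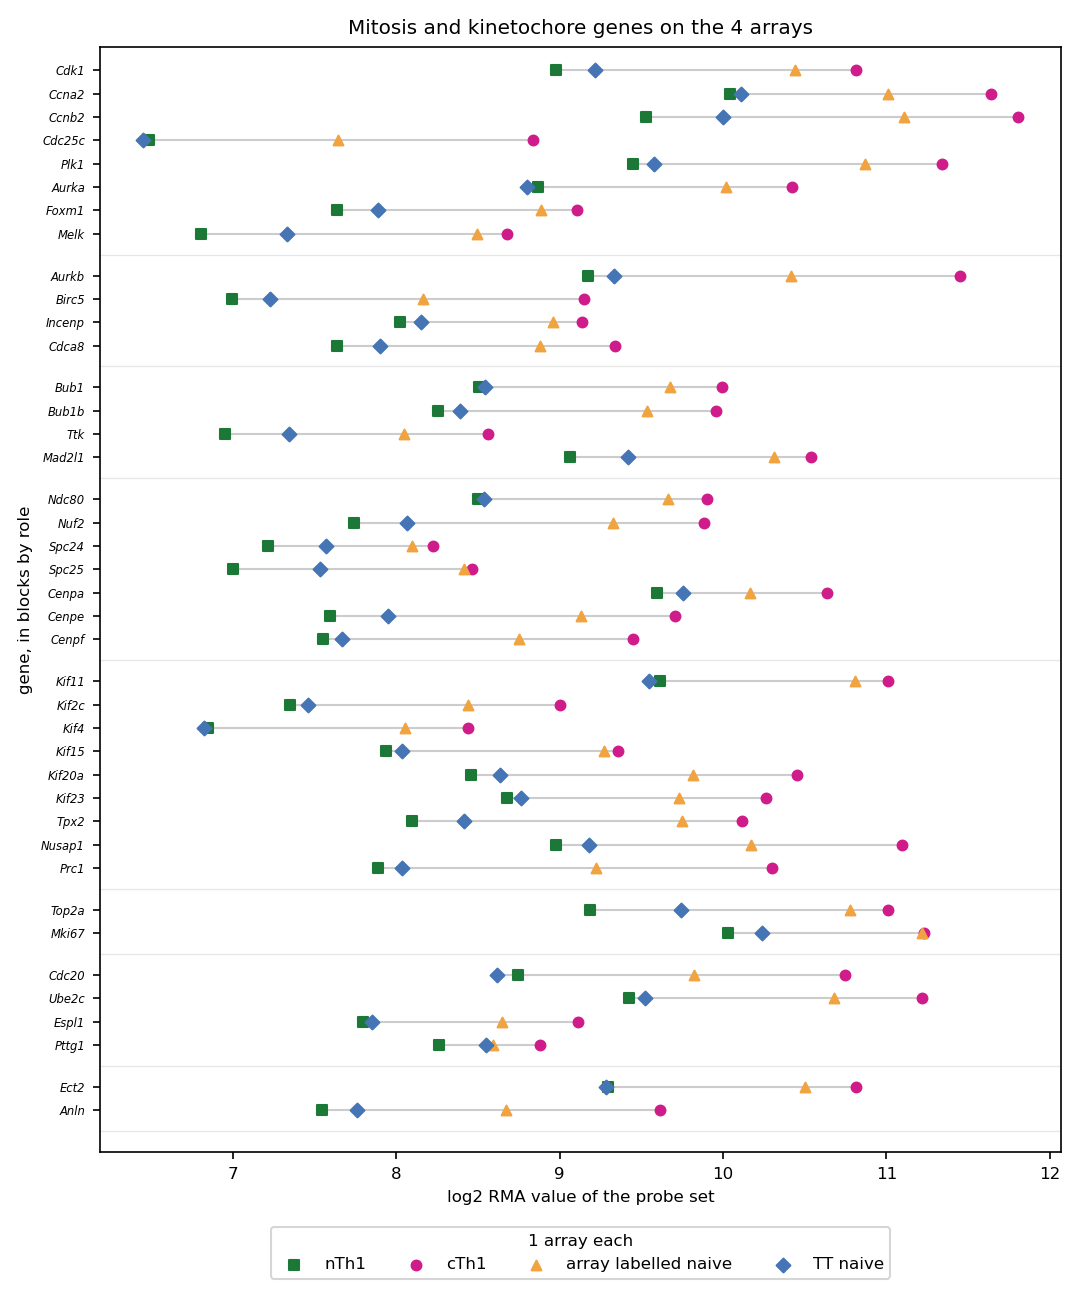
Log2 RMA value of each of the 40 mitosis and kinetochore genes (rows, in blocks by role) on the nTh1, cTh1, labelled naive and TT naive arrays, 1 array each, with a grey line over the range of each gene. In every row cTh1 lies farthest to the right and the array labelled naive next, while nTh1 and TT naive lie to the left of both. In Pttg1 all 4 lie close together.

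Against TT naive, the uncultured CXCR3- thymocytes, 34 of 40 mitosis genes were at least 2-fold higher in cTh1 cells, against 4.35% of all genes, and none was 2-fold lower, against 1.97%. The median difference was 1.53 on the log2 scale, or 2.90-fold, while the median over all genes was 0.03. The differences ran from 0.33 for Pttg1 to 2.38 for Cdc25c, and 39 of 40 exceeded 0.440, the SD between probe sets in that comparison. The array labelled naive had 23 of 40 at least 2-fold higher than TT naive, against 1.58% of all genes, and none 2-fold lower, against 0.622%. Its median difference was 1.10, or 2.14-fold, with a range from 0.05 for Pttg1 to 1.34 for Tpx2, against an SD between probe sets of 0.304. No mitosis gene differed by 2-fold between nTh1 and TT naive in either direction. Of all genes, 0.96% were 2-fold higher and 0.672% lower there, so a count of 0 is near those shares. The median difference over the mitosis genes was -0.16, and 28 of 40 differences were within the SD between probe sets of 0.257. The remaining 12 were all lower in nTh1, with Top2a lowest at -0.56. These comparisons share the TT naive array, so a value particular to that array enters each of them. Between cTh1 and TT naive, tissue, genotype and culture differ together and cannot be told apart. By its label, the array labelled naive differs from TT naive in both tissue and genotype, which cannot be told apart either.

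**Figure D3:**
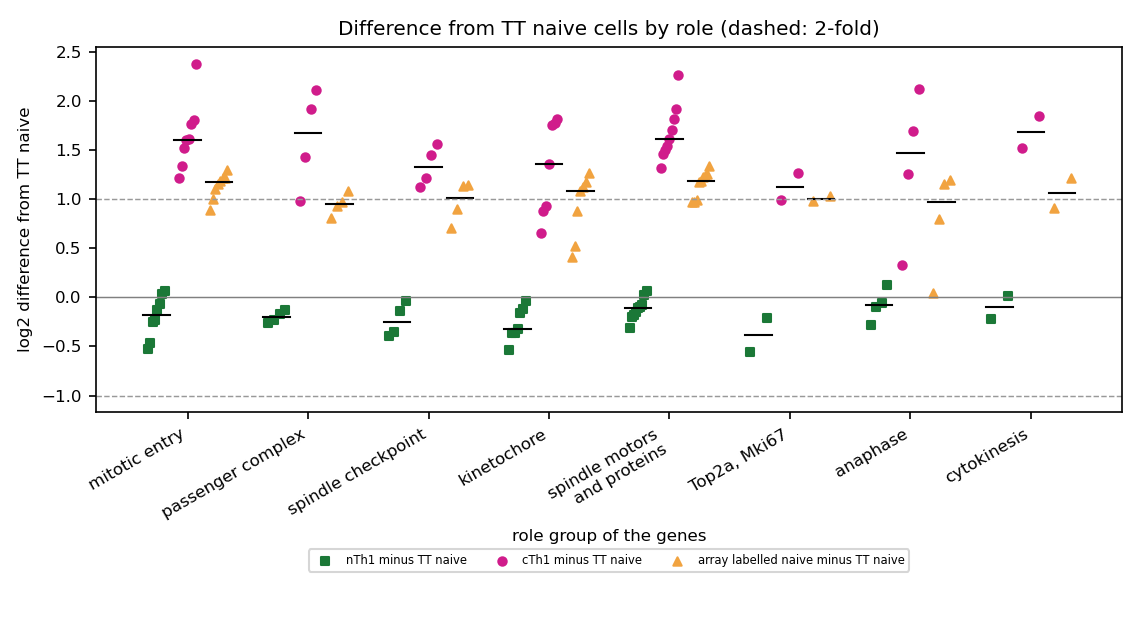
Log2 difference from TT naive for each of the 40 genes, by role, in nTh1 (green squares), cTh1 (pink circles) and on the array labelled naive (orange triangles), with the median as a black line and 2-fold as dashed lines. The nTh1 points lie between -0.56 and 0.12, and the cTh1 median lies above the other medians in each role group, though single points of cTh1 and the array labelled naive overlap.

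Regulators of mitotic entry were lowest on the nTh1 and TT naive arrays throughout, which are thymic by their labels. Cdk1, the kinase that starts mitosis, was at 8.98 in nTh1, 10.82 in cTh1, 10.44 on the array labelled naive and 9.22 for TT naive. Ccnb2, one of its B-type cyclins, was at 9.53 in nTh1, 11.80 in cTh1, 11.11 on the array labelled naive and 10.00 for TT naive. In cTh1 these genes thus stood 1.60 and 1.80 above TT naive, and on the array labelled naive 1.22 and 1.11 above it. Ccna2, cyclin A2, which acts in S phase and early mitosis, was at 10.04 in nTh1, 11.64 in cTh1, 11.01 on the array labelled naive and 10.11 for TT naive. Cdc25c, a phosphatase that activates Cdk1, was at 6.49 in nTh1, 8.84 in cTh1, 7.64 on the array labelled naive and 6.45 for TT naive. Its cTh1 value was higher than TT naive by 2.38, the largest difference of the 40, and higher than the array labelled naive by 1.19. Its values of 6.49 in nTh1 and 6.45 in TT naive lay just under the median of all values.

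Plk1, a kinase needed at many steps from mitotic entry to exit, was at 9.45 in nTh1, 11.34 in cTh1, 10.87 on the array labelled naive and 9.58 for TT naive. Aurka, the Aurora A kinase of spindle poles, was at 8.87 in nTh1, 10.42 in cTh1, 10.02 on the array labelled naive and 8.80 for TT naive. Between nTh1 and TT naive these genes differed by -0.12 and 0.07 only. Foxm1, a transcription factor that activates G2 and mitosis genes, was at 7.64 in nTh1, 9.11 in cTh1, 8.89 on the array labelled naive and 7.89 for TT naive. Melk, a kinase made mainly in dividing cells, was at 6.81 in nTh1, 8.68 in cTh1, 8.49 on the array labelled naive and 7.33 for TT naive. For Foxm1 and Melk the cTh1 value exceeded that of the array labelled naive by 0.22 and 0.18, and Melk was lower in nTh1 than in TT naive by 0.53. All 8 genes of mitotic entry were at least 2-fold higher in cTh1 than in TT naive, against 4.35% of all genes. Their median was 1.61.

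The chromosomal passenger complex corrects faulty attachments at centromeres and later guides the cleavage of the cell. Its kinase Aurkb (Aurora B) was at 9.17 in nTh1, 11.45 in cTh1, 10.42 on the array labelled naive and 9.34 for TT naive. Birc5 (survivin), which anchors the complex to chromatin, was at 7.00 in nTh1, 9.15 in cTh1, 8.16 on the array labelled naive and 7.23 for TT naive. The scaffold Incenp had a smaller range, at 8.02 in nTh1, 9.14 in cTh1, 8.96 on the array labelled naive and 8.15 for TT naive. Aurkb and Birc5 were higher in cTh1 than in TT naive by 2.12 and 1.92, and Incenp by 0.99, just under 2-fold. Cdca8 (borealin) lay between them at 1.44. Against the array labelled naive, Aurkb was higher in cTh1 by 1.03 and Birc5 by 0.98, while Incenp was higher by 0.18. Subunits of 1 complex thus differed from each other in size of difference on these arrays.

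The spindle checkpoint delays anaphase. Of its genes read here, 4 of 4 were at least 2-fold higher in cTh1 than in TT naive, against 4.35% of all genes. Bub1b, the checkpoint protein BubR1, was at 8.25 in nTh1, 9.96 in cTh1, 9.54 on the array labelled naive and 8.39 for TT naive. Mad2l1, which binds and holds Cdc20, was at 9.06 in nTh1, 10.54 in cTh1, 10.31 on the array labelled naive and 9.42 for TT naive. Bub1 and Ttk, both checkpoint kinases, were higher in cTh1 than in TT naive by 1.45 and 1.22 and on the array labelled naive by 1.14 and 0.70. The median of nTh1 minus TT naive over these 4 genes was -0.25.

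Kinetochore and centromere genes ranged from 0.66 to 1.82 in cTh1 minus TT naive. Ndc80 and Nuf2 form the microtubule-binding end of the Ndc80 complex, and Spc24 and Spc25 the end that faces the centromere. Nuf2 was at 7.75 in nTh1, 9.88 in cTh1, 9.33 on the array labelled naive and 8.07 for TT naive. Spc24 was at 7.21 in nTh1, 8.23 in cTh1, 8.10 on the array labelled naive and 7.57 for TT naive. Spc25 was at 7.00 in nTh1, 8.46 in cTh1, 8.42 on the array labelled naive and 7.53 for TT naive. Ndc80 and Nuf2 were higher in cTh1 than in TT naive by 1.37 and 1.82, while Spc24 and Spc25 were higher by 0.66 and 0.93 and did not reach 2-fold. Spc25 had nearly the same value in cTh1 and on the array labelled naive, with a difference of 0.04. Cenpa, the histone H3 variant that marks centromeres, was at 9.59 in nTh1, 10.64 in cTh1, 10.17 on the array labelled naive and 9.76 for TT naive. Its difference between cTh1 and TT naive was 0.88. The kinesin Cenpe and the large protein Cenpf, both of the outer kinetochore, were higher in cTh1 than in TT naive by 1.75 and 1.78. In all, 4 of 7 genes of this group were at least 2-fold higher in cTh1 than in TT naive, against 4.35% of all genes.

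All 9 genes of spindle motors and microtubule proteins were at least 2-fold higher in cTh1 than in TT naive, against 4.35% of all genes. Their median was 1.61. Prc1, which bundles the microtubules of the central spindle, was at 7.89 in nTh1, 10.30 in cTh1, 9.22 on the array labelled naive and 8.03 for TT naive. Nusap1, a microtubule protein of the spindle near chromosomes, was at 8.98 in nTh1, 11.10 in cTh1, 10.17 on the array labelled naive and 9.18 for TT naive. In cTh1 they were higher than on the array labelled naive by 1.08 and 0.92, the largest differences of this group. Tpx2, which activates Aurora A on the spindle, was at 8.10 in nTh1, 10.12 in cTh1, 9.75 on the array labelled naive and 8.41 for TT naive. Kif11 and Kif15 are plus-end motors that push spindle poles apart. Kif11 was at 9.61 in nTh1, 11.01 in cTh1, 10.81 on the array labelled naive and 9.55 for TT naive. Kif15 was at 7.94 in nTh1, 9.36 in cTh1, 9.27 on the array labelled naive and 8.03 for TT naive. Their cTh1 values exceeded the array labelled naive by 0.20 and 0.09 only. Kif20a and Kif23, motors of the central spindle and cleavage furrow, were higher in cTh1 than on the array labelled naive by 0.63 and 0.53, and Kif2c, which takes microtubules apart at kinetochores, by 0.56. The chromosome motor Kif4 was higher by 0.38. Against TT naive, Kif20a, Kif2c and Kif4 were higher in cTh1 by 1.82, 1.54 and 1.61, and Kif23 was at 10.27 in cTh1 and 8.76 for TT naive.

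Top2a, the topoisomerase that untangles sister chromosomes, was at 9.19 in nTh1, 11.01 in cTh1, 10.77 on the array labelled naive and 9.74 for TT naive. Mki67, which encodes the Ki-67 protein that coats mitotic chromosomes and is lost from resting cells, was at 10.03 in nTh1, 11.23 in cTh1, 11.22 on the array labelled naive and 10.24 for TT naive. Mki67 differed by 0.01 between cTh1 and the array labelled naive, the smallest difference of the 40, and by 0.99 between cTh1 and TT naive. Top2a differed by 0.24 and 1.27 in these comparisons.

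Cdc20, which activates the anaphase-promoting complex, was at 8.74 in nTh1, 10.75 in cTh1, 9.82 on the array labelled naive and 8.62 for TT naive. Ube2c, the ubiquitin-conjugating enzyme of that complex, was at 9.42 in nTh1, 11.22 in cTh1, 10.68 on the array labelled naive and 9.52 for TT naive. Cdc20 was higher in cTh1 than on the array labelled naive by 0.93 and than TT naive by 2.13. Espl1 encodes separase, the protease that cuts cohesin at anaphase, and Pttg1 encodes securin, its inhibitor. Espl1 was at 7.80 in nTh1, 9.11 in cTh1, 8.65 on the array labelled naive and 7.85 for TT naive. Pttg1 was at 8.26 in nTh1, 8.88 in cTh1, 8.59 on the array labelled naive and 8.55 for TT naive. The 4 values of Pttg1 spanned 0.61, the smallest range of the 40 genes, and its cTh1 value was higher than TT naive by 0.33, less than the SD between probe sets. Ect2, which activates RhoA at the cleavage furrow, was at 9.29 in nTh1, 10.81 in cTh1, 10.50 on the array labelled naive and 9.28 for TT naive. Anln (anillin), a scaffold of the contractile ring, was at 7.54 in nTh1, 9.61 in cTh1, 8.67 on the array labelled naive and 7.76 for TT naive. Ect2 and Anln were higher in cTh1 than in TT naive by 1.53 and 1.85.

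Between nTh1 and cTh1, the populations that the series title sets side by side, 39 of 40 mitosis genes were at least 2-fold lower in nTh1, against 4.98% of all genes, and none was 2-fold higher, against 2.3%. Pttg1 was the exception at -0.61. The median difference was -1.68, or 3.20-fold lower in nTh1, and Prc1 was lowest at -2.41. Every one of the 40 differences exceeded the SD between probe sets of 0.481 in size. Tissue, genotype and culture differ together between these arrays and cannot be told apart. The result also rests on the nTh1 label, and the array labelled naive stood closer to cTh1, with a median of 0.46 for cTh1 minus that array. Against the array labelled naive, 34 of 40 were at least 2-fold lower in nTh1, against 2.63% of all genes, with a median of -1.20. None was 2-fold higher, against 1.44%. By their labels, nTh1 and the array labelled naive differ together in tissue, genotype and sorting on CXCR3, which cannot be told apart.

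Between cTh1 and the array labelled naive, 3 of 40 mitosis genes (Cdc25c, Prc1 and Aurkb) were at least 2-fold higher in cTh1, beside 3.13% of all genes, and none was 2-fold lower, beside 2.08%. The median difference was 0.46, or 1.38-fold, and all 40 differences were above 0. They exceeded the SD between probe sets of 0.402 for 22 of the 40. After those 3 genes, Birc5 at 0.98, Anln at 0.94, Cdc20 at 0.93 and Nusap1 at 0.92 came next, and the low end was held by Mki67 at 0.01, Spc25 at 0.04, Kif15 at 0.09 and Spc24 at 0.13. The median was 0.46 for the 24 genes with TTTGAA in their window and 0.43 for the 8 genes with a window but no match. For cTh1 minus TT naive these medians were 1.53 and 1.60, and for nTh1 minus cTh1 -1.63 and -1.99, so the genes with the motif did not have the larger medians throughout.

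DNA replication and S phase genes did not follow the mitosis genes in that comparison. Of 32 measured genes, 28 were lower in cTh1 than on the array labelled naive and 4 higher, with a median of -0.27, and none reached 2-fold in either direction. Of all 22180 genes, 11298 were lower and 10861 higher. The median of -0.27 was smaller in size than the SD between probe sets of 0.402. Mcm2, a subunit of the replicative helicase, was at 10.42 in nTh1, 10.16 in cTh1, 11.16 on the array labelled naive and 10.49 for TT naive. Tyms, which makes thymidylate for DNA, was at 9.04 in nTh1, 8.95 in cTh1, 9.64 on the array labelled naive and 9.13 for TT naive. Both genes were highest on the array labelled naive, and in cTh1 they were lower than there by 1.00, just short of 2-fold, and by 0.69. Rrm2, the ribonucleotide reductase subunit, was at 8.94 in nTh1, 10.87 in cTh1, 10.49 on the array labelled naive and 9.54 for TT naive, the order of the mitosis genes. Against TT naive, the replication list had a median of 0.35 in cTh1 and 0.68 on the array labelled naive, where the mitosis genes had 1.53 and 1.10. A difference between the lists could not be tested with 1 array per group.

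**Figure D4:**
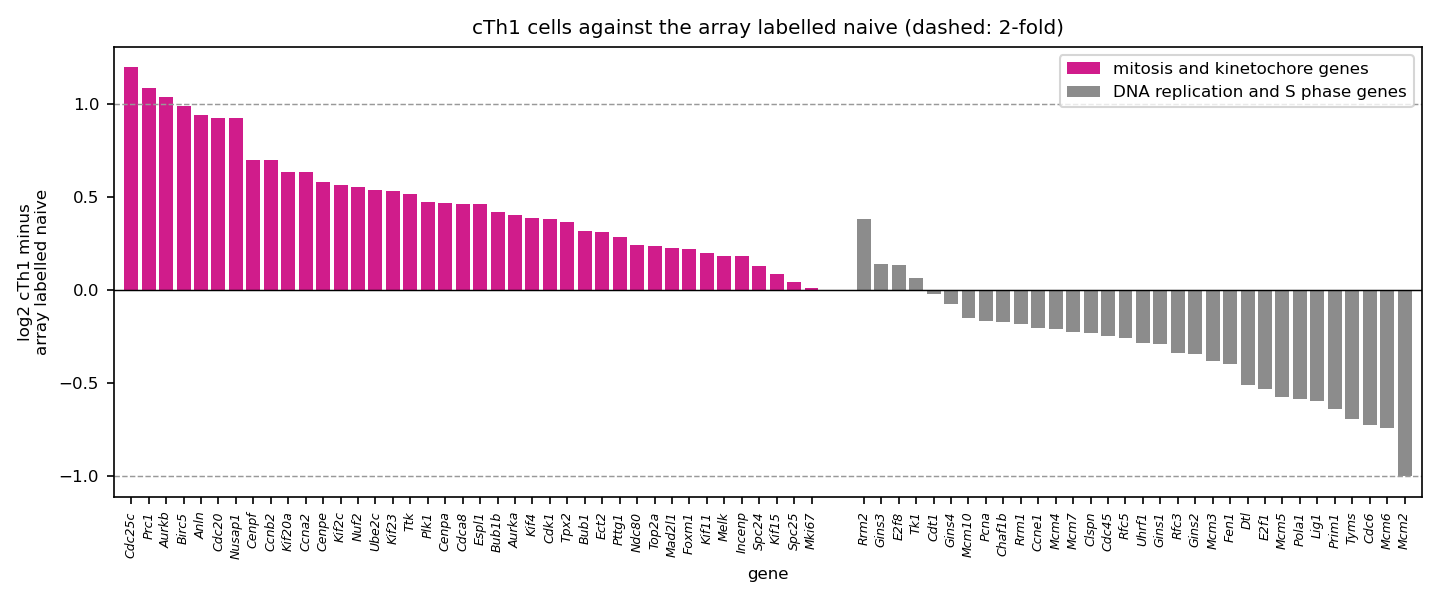
Log2 difference of cTh1 minus the array labelled naive for the 40 mitosis and kinetochore genes (pink bars) and the 32 measured DNA replication and S phase genes (grey bars), each sorted, with 2-fold as dashed lines. All 40 pink bars are above 0, from 0.01 to 1.19, and 28 of the 32 grey bars are below 0.

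Other genes of cell division were read in 8 lists, of which 143 of 155 genes were measured. Counts at 2-fold in cTh1 over TT naive are to be read beside the 4.35% of all genes that were higher and the 1.97% that were lower. In the list of other spindle and cytokinesis genes, 16 of 21 were at least 2-fold higher in cTh1 than in TT naive, none was 2-fold lower, and the median was 1.40. Cep55, which directs the final cut between daughter cells, was higher by 2.25, and Kif18b, a motor at microtubule ends, by 2.12. At the other end were Cenpj, a protein of centriole assembly, at -0.42 and Numa1, which tethers spindle poles, at -0.12. Other regulators of mitotic entry and exit had 8 of 15 2-fold or more higher and 0 at 2-fold lower, with Gtse1 at 2.28 and Troap at 2.04. Ube2s, which extends ubiquitin chains for the anaphase-promoting complex, was at 0.02, and Plk4, the kinase of centriole copying, at 0.44. Cdc25b, a phosphatase of the Cdc25 family, was lower in nTh1 than in TT naive by 1.34, at 9.43 in nTh1, 11.54 in cTh1, 10.99 on the array labelled naive and 10.77 for TT naive. It was the only gene of the 143 measured in the 8 lists that differed by 2-fold between nTh1 and TT naive. Of all genes, 0.672% were 2-fold lower and 0.96% higher there, so this count is near the share of all genes.

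Other kinetochore and checkpoint genes had 6 of 27 at least 2-fold higher in cTh1 than in TT naive and a median of 0.73. Ska3, of a complex that couples kinetochores to microtubules, was higher by 1.53 and Sgo1 (shugoshin), which protects centromeric cohesin, by 1.45. Zwint was at 0.03 and Zw10, a checkpoint protein that also acts in membrane traffic, at -0.47. Among condensin and cohesin genes 4 of 14 were at least 2-fold higher. Ncaph, a condensin subunit, was at 1.48 and Cdca5 (sororin) at 1.24, while the cohesin subunits Stag1 and Smc1a were at -0.40 and -0.29. The core subunits of the anaphase-promoting complex, which many cells make at all times, were listed together with its activator Fzr1 (Cdh1). This list had a median of 0.11. Of its 15 genes 1 reached 2-fold, a share near that of all genes. It was Fzr1, which is used at the end of mitosis and is not a core subunit, at 1.14. No core subunit of the list reached 2-fold. Anapc11 was at 0.72, Anapc7 at -0.23 and Anapc5 at -0.23.

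Genes of the DREAM complex and pocket proteins, the repressor described above, had no member of 12 at 2-fold between cTh1 and TT naive and a median of 0.13, with Lin37 at 0.69, Rb1 at 0.38, Rbbp4 at -0.24 and Lin52 at -0.46. The CDK inhibitors had 2 of 7 at least 2-fold higher in cTh1 and 5 between. Cdkn1a, which encodes p21, was at 7.39 in nTh1, 12.13 in cTh1, 7.77 on the array labelled naive and 6.63 for TT naive. Cdkn2c (p18) was at 7.54 in nTh1, 9.61 in cTh1, 9.27 on the array labelled naive and 8.32 for TT naive, the order of most mitosis genes. Cdkn2a and Cdkn1c differed by 0.43 and 0.07 between cTh1 and TT naive. In the replication list Tk1 was higher in cTh1 than in TT naive by 1.11 and Rrm2 by 1.33, and 3 of 32 reached 2-fold, beside 4.35% of all genes.

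**Figure D5:**
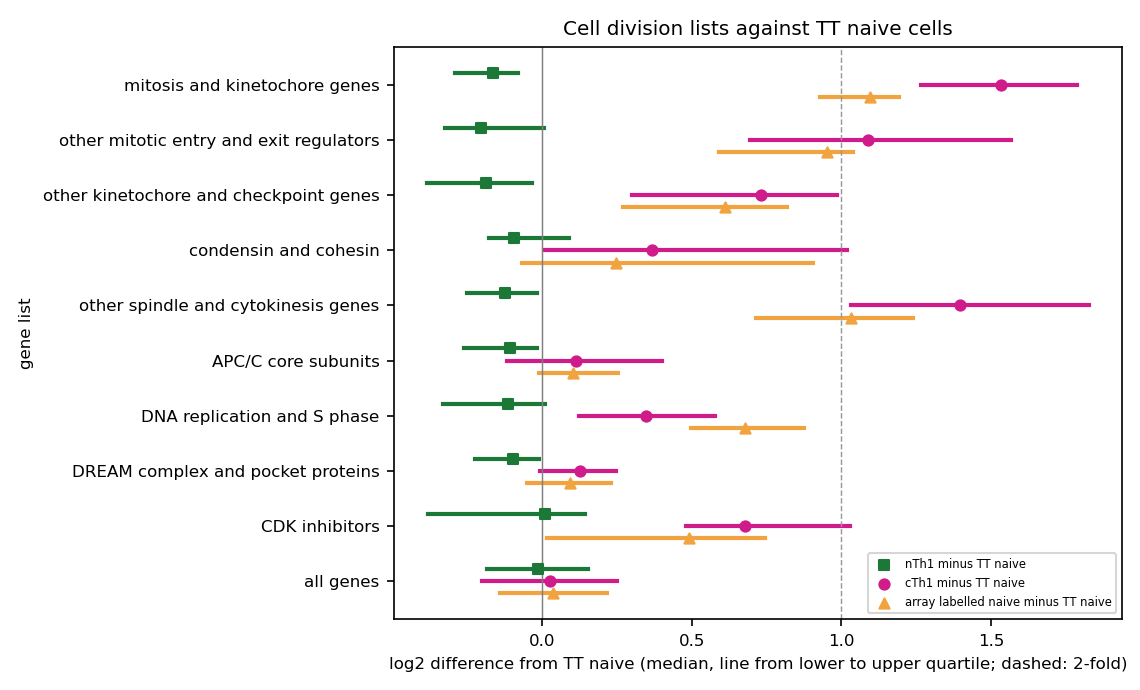
Median log2 difference from TT naive (symbols) with lower and upper quartile over genes (lines) for the mitosis and kinetochore genes, 8 other lists of cell division and all genes, in nTh1 (green squares), cTh1 (pink circles) and on the array labelled naive (orange triangles). The cTh1 median lies right of that of the array labelled naive for the mitosis genes (1.53 and 1.10) and left of it for DNA replication and S phase (0.35 and 0.68).

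Markers of other cells differed between the same arrays. For B cells, 5 of 6 listed genes were measured, and their summed linear value was 867 in nTh1, 3578 in cTh1, 451 on the array labelled naive and 463 for TT naive. Cd79a, a chain of the B cell receptor, was at 7.64 in nTh1, 10.29 in cTh1, 6.53 on the array labelled naive and 6.50 for TT naive. For immature thymocytes, among which dividing cells occur, 8 of 9 genes were measured and summed to 3612 in nTh1, 4092 in cTh1, 1563 on the array labelled naive and 1675 for TT naive. Rag2, of receptor rearrangement, was at 6.19 in nTh1 and 4.98 in cTh1, and Dntt at 9.47 in nTh1 and 8.58 in cTh1. Myeloid markers, 7 of 7 measured, summed to 2447 in nTh1, 1171 in cTh1, 2021 on the array labelled naive and 849 for TT naive. NK markers, 4 of 4 measured, summed to 676 in nTh1, 1469 in cTh1, 749 on the array labelled naive and 398 for TT naive. Most of the NK sum in cTh1 came from Klrd1, at 10.28. Ncr1 and Klrb1c, at 5.37 and 4.73 in cTh1, were lower there than on the other arrays. Tyrobp was at 8.59 in nTh1, 7.32 in cTh1, 7.66 on the array labelled naive and 6.85 for TT naive. On this scale no probe set reads 0. The B cell, NK and immature thymocyte sums were highest in cTh1, as the mitosis genes were, and their part in the result was not tested. Most of the immature thymocyte sum in cTh1 came from the CD8 chains Cd8a and Cd8b1, at 10.31 and 10.75. CD8 T cells, which carry these chains too, had no marker list here, so this sum does not speak for immature thymocytes alone. In the immature thymocyte list 4 of 8 genes were lower in cTh1 than in TT naive. Among them was Sox4 at 5.79 in cTh1 and 7.93 for TT naive. On the array labelled naive, mitosis genes had a median of 1.10 above TT naive. Its B cell and immature thymocyte sums were slightly below those of TT naive, and its myeloid and NK sums above them. The part of such cells there was not tested either.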

How the data were processed

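The authors deposited log2 values per probe set. Per the submitters' processing notes they used Affymetrix Expression Console 1.3.1 with its RMA method, which corrects background, brings arrays to a common distribution and compresses small signals, which can understate differences of dim genes. The summary level was not stated in the labels used here. All 4 columns were used. Probe sets were named from the platform annotation where it gave exactly 1 symbol (23521 probe sets), and a gene with several was read by the one whose mean over the 4 arrays was highest. Promoter windows came from RefSeq, build GRCm38.p6.

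Each difference is the log2 value on the array named first less that on the other, over all 22180 genes without a level filter, and genes were counted at 2-fold. No test was made, since each group had 1 array. The members and lists were chosen with earlier results of these data known. Named in the text are all 40 members, the 2 highest and 2 lowest genes of each other division list in cTh1 minus TT naive, genes of those lists at 2-fold in nTh1 minus TT naive, cell markers and the 6 genes with the closest pattern. Alternatives were centring, removal of a loess trend (span 0.3), the mean of all probe sets, a level filter at the median of all values, 6.61, and thresholds of 1.5-fold and 3-fold. Counting was tested on simulated data with planted differences. Python 3.11.15, numpy 2.4.6, pandas 2.3.3 and statsmodels 0.14.6 were used.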

Additional observations from a re-analysis of the deposited data

How the results depend on the processing

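The direction of the median difference over the 40 mitosis genes was the same in all 6 comparisons under centring of the arrays, removal of the loess trend, the mean of all probe sets and the level filter, and no median moved by more than the SD between probe sets. For nTh1 minus TT naive it was -0.22 with centring and -0.08 with the loess trend removed, against -0.16 as reported. Counts moved by over 1.5 times only with another fold threshold. At 3-fold, 18 mitosis genes were higher in cTh1 than in TT naive, 0 on the array labelled naive than in TT naive and 0 in cTh1 than on the array labelled naive, while 3 were lower in nTh1 than on the array labelled naive and 24 lower in nTh1 than in cTh1. At 1.5-fold, 37 were higher on the array labelled naive than in TT naive and 11 in cTh1 than on the array labelled naive. Shares of all genes were counted at 2-fold only. The counts at 1.5-fold and 3-fold therefore cannot be set beside all genes. Centring moved all differences by the gap between array medians, which was -0.12 for cTh1 minus TT naive, 0.13 for nTh1 minus the array labelled naive and 0.18 for nTh1 minus cTh1. With it, the numbers of all genes at least 2-fold higher and lower became 1217 and 318 in cTh1 over TT naive (964 and 438 as reported), 213 and 832 in nTh1 over the array labelled naive (319 and 583), and 316 and 1561 in nTh1 over cTh1 (510 and 1104). No paired analysis was possible because each group had 1 array, and no replicate could be left out. Since every member had 1 probe set, the mean over probe sets changed no member. Signals near background limit Cdc25c on the nTh1 and TT naive arrays, where its value was under the median of all values.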

Other observations

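Outside all lists, 6 genes had the pattern over the 4 arrays closest to the mean of the 40 mitosis genes, measured as the root mean square distance of log2 values after each gene was centred on its own mean. They were Syce2 (distance 0.03), Dstn (0.06), Cdca3 (0.06), Cdca2 (0.07), St14 (0.08) and Fancd2 (0.08), among genes with a range of at least 1 on the log2 scale. Syce2, known as a protein of the meiotic synaptonemal complex, was at 7.45 in nTh1, 9.20 in cTh1, 8.69 on the array labelled naive and 7.62 for TT naive. Cdca3, which takes part in the destruction of Wee1 at mitotic entry, was at 7.30 in nTh1, 9.13 in cTh1, 8.52 on the array labelled naive and 7.47 for TT naive. Cdca2, a chromatin subunit of a mitotic phosphatase, was at 7.89 in nTh1, 9.53 in cTh1, 9.01 on the array labelled naive and 8.18 for TT naive. Fancd2, of the Fanconi anaemia repair pathway, was at 7.25 in nTh1, 8.74 in cTh1, 8.40 on the array labelled naive and 7.41 for TT naive. Dstn, an actin-severing protein, was at 7.94 in nTh1, 9.50 in cTh1, 9.08 on the array labelled naive and 8.01 for TT naive, and St14, a membrane serine protease, at 6.82 in nTh1, 8.51 in cTh1, 8.08 on the array labelled naive and 7.19 for TT naive. With 4 arrays, closeness of pattern describes these arrays only.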
